A study of Homo sapiens with 3 samples.

Results

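The RNA-Seq library of BEX2-/- DLD1 clone 1 was compared with that of DLD1 control cells. These are 2 of the 3 libraries of the series, and the third, from BEX2-/- clone 2, is given beside them. DLD1 is an established human colorectal cancer cell line. The control cells were wild type and not edited at BEX2. In the BEX2-/- cells the gene had been knocked out with CRISPR/Cas9, and each BEX2-/- library came from 1 clone. Total RNA was made into libraries with the Illumina TruSeq RNA kit, 1 library per group, and the labels name the same run date and lane for all of them. The study asked which genes and pathways differ when BEX2 is lost. With 1 control library and 1 library of this clone there is no replicate spread and no test, and an effect of the knockout cannot be told apart from the way any single clone differs from its parent line.

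Expression was deposited in FPKM, which is a count of fragments scaled to exon length and to the depth of the library, so levels can be set side by side between genes. The members are the protein-coding genes whose mean over the control and clone 1 was at least 1 FPKM. This kept 10037 of the 19664 protein-coding genes of the table, which lists 60504 genes in all. The difference was taken as log2((clone 1 + 1)/(control + 1)), called the log2 ratio, and a gene was called higher or lower where this ratio reached 2-fold. The added 1 FPKM understates the change of low genes. Folds are given below as plain FPKM ratios, with a 95% exact interval from the reads behind both values where those could be recovered. The intervals compare 2 libraries and cover counting error only.

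BEX2 belongs to a family of small, largely disordered proteins encoded on the X chromosome, studied as adaptors in cell survival and in signaling, NF-kappaB signaling included. The colon epithelium renews itself from stem cells at the crypt base, and its cells switch on genes for absorption, adhesion and mucus as they move upward. Colorectal cancer lines keep parts of this program to different degrees. NF-kappaB is a family of transcription factors held in the cytoplasm by inhibitor proteins until inflammatory or stress signals release them, and its targets include chemokines and its own inhibitors.

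BEX2 itself (ENSG00000133134, chromosome X, 103309346 to 103311046, minus strand, GRCh38) was listed at 0 FPKM in the control, in clone 1 and in clone 2. The targeted gene therefore gives no check of the labels. A floor of 3 reads, set here as an approximate upper limit for a count of 0, corresponds to 0.0538 FPKM in the control. Reads recovered from the FPKM steps put the depth at 47458846 reads in the control, 35593993 in clone 1 and 47722375 in clone 2. Genes at 1 FPKM or above numbered between 11572 and 11776 per library. The cell type label was checked against markers. The epithelial gene EPCAM had 265 FPKM in the control and 282 in clone 1, and E-cadherin (CDH1) 42.6 and 53.9. Vimentin (VIM), the mesenchymal filament protein, had 0.0424 and 0.0113 FPKM. Of 16 markers of fibroblasts, blood and endothelial cells, none passed the filter on low values, and 9 were listed at 0 in both libraries. Their summed level was 1.00 FPKM in the control, 1.52 in clone 1 and 0.954 in clone 2.

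Among the 10037 genes, 90 were at least 2-fold higher in clone 1 (0.897%) and 51 were at least 2-fold lower (0.508%). Genes of the mature colon epithelium led the first group, with LGALS4, FABP1, CEACAM5, REG4 and PHGR1 near the top. Chemokines and other NF-kappaB targets led the second, with CXCL1, CCL20, CXCL2, CXCL8 and CXCL3 lowest. Of the 15 highest genes, 8 belonged to a list of intestinal differentiation genes. Of the 15 lowest genes, 8 belonged to a list of NF-kappaB subunits and targets. Most of the transcriptome lay close to the control, with a median log2 ratio of 0.05 and 95% of genes between -0.48 and 0.64. A change of at least 4-fold was reached by 20 genes upward and 9 downward.

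**Figure D1:**
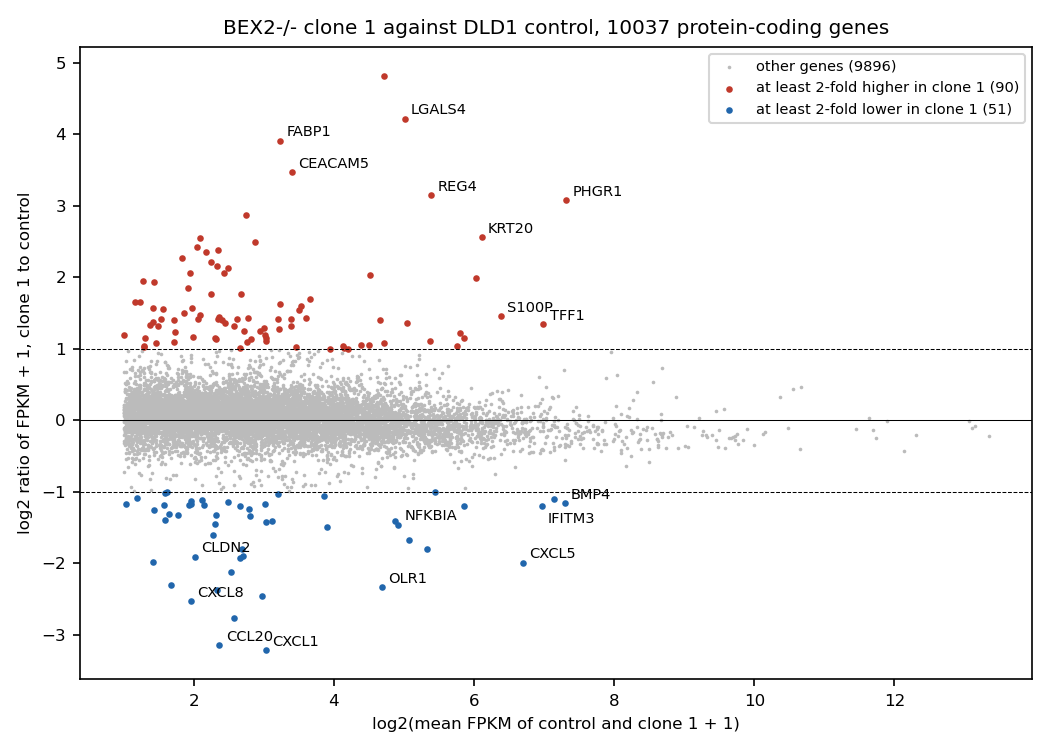
Log2 ratio of clone 1 to the control (vertical axis, FPKM + 1) against the mean level of the gene in both libraries (horizontal axis, log2 of FPKM + 1), 1 point per protein-coding gene, with dashed lines at 2-fold. The 90 higher genes (red) and 51 lower genes (blue) lie at the ends of a continuous range in which 95% of all genes fall between -0.48 and 0.64.

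The genes that were higher were mostly weakly expressed in the control. Their median was 2.07 FPKM in the control, 8.25 in clone 1 and 1.93 in clone 2, and 32 of the 90 were under 1 FPKM in the control. The lower genes had a median of 8.45 FPKM in the control, 1.69 in clone 1 and 17.5 in clone 2, and 16 of the 51 were under 1 FPKM in clone 1. Reads could be resolved for 134 of these 141 genes, and the counting interval of the ratio left out 1 for all of the 134. The genes were picked by a 2-fold difference in these same values, so that outcome was largely set by the choice and is no support. In bulk RNA, fewer cells that express a gene and less RNA of it per cell cannot be told apart, and this holds for every value here.

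LGALS4 (ENSG00000171747, chromosome 19, 38801671 to 38813364, minus strand), which encodes the gut lectin galectin-4, had a log2 ratio of 4.22. It was at 2.28 FPKM in the control, 60.2 in clone 1 and 0.119 in clone 2. Clone 1 was thus 26.4-fold higher than the control (95% interval 23.4 to 29.8). FABP1, the fatty acid carrier of enterocytes and hepatocytes, had 20 reads in the control, 1464 in clone 1 and 0 in clone 2. Its level went from 0.171 to 16.7 FPKM, a 97.6-fold difference (63.0 to 160.3), which rests on few reads in the control.

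PHGR1, a small protein of the gut epithelium rich in proline, histidine and glycine, was the most abundant gene of the higher group in clone 1. Its level was 32.6 FPKM in the control, 284 in clone 1 and 3.07 in clone 2, so that clone 1 was 8.71-fold higher (8.24 to 9.21). Keratin 20 (KRT20), the filament protein of differentiated colonic cells, was at 18.9, 117 and 0.931 FPKM in the same order. Clone 1 was 6.19-fold above the control for it (5.87 to 6.53). REG4, a secreted lectin of the enteroendocrine and goblet lineages, stood at 7.48, 74.3 and 0.546 FPKM. These genes were already expressed in the control, and REG4, PHGR1 and KRT20 had 1240, 1455 and 1657 reads there.

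**Figure D2:**
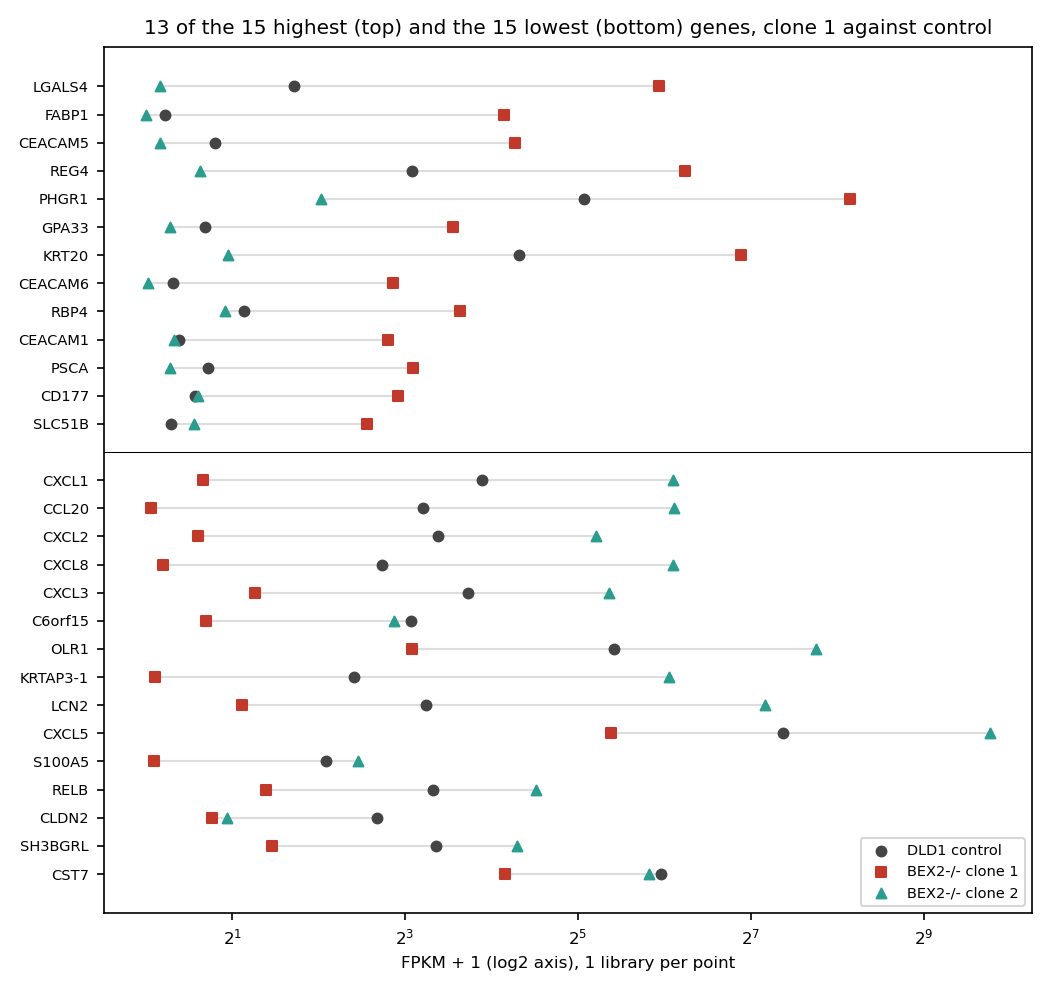
FPKM + 1 (log2 axis) of 13 of the 15 highest and of the 15 lowest genes by log2 ratio in the control (grey circles), clone 1 (red squares) and clone 2 (green triangles), 1 library per point. LGALS4 ranges from 0.119 to 60.2 FPKM and CXCL1 from 0.585 to 67.3 FPKM, and the grey bars join the lowest and highest library of each gene.

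The carcinoembryonic antigen family, adhesion glycoproteins of the apical colon surface, contributed 4 genes. CEACAM5, the carcinoembryonic antigen itself, was at 0.742 FPKM in the control, 18.3 in clone 1 and 0.119 in clone 2. CEACAM6 was at 0.242, 6.27 and 0.0137 FPKM, and clone 1 was 25.9-fold higher than the control (18.5 to 37.6). CEACAM1 had 79, 1176 and 68 reads. CEACAM7 had 10, 225 and 1. All 4 were low in the control and in clone 2, and only clone 1 reached more than 2 FPKM. CEACAM5 and CEACAM6 share exons with an overlapping annotated transcript on the same strand and the family is similar in sequence, so the split of reads among its members is uncertain.

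The intestinal differentiation list held 34 genes, of which 19 passed the filter. Of these 19, 14 were at least 2-fold higher, none was lower, and all 19 had a log2 ratio above 0. Their median log2 ratio was 1.77, against 0.05 over all genes tested. Of all genes tested, 0.897% were at least 2-fold higher and 58.1% had a log2 ratio above 0. The 14 higher genes of the list were LGALS4, FABP1, CEACAM5, PHGR1, GPA33, KRT20, CEACAM6, CEACAM1, GUCA2A, DPP4, CEACAM7, VIL1, CDH17 and TSPAN8. A gene that was near 0 in the control could pass the filter only through clone 1, so the count over the members that passed is a description.

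GPA33, the A33 antigen of the intestinal surface, was at 0.606 FPKM in the control, 10.8 in clone 1 and 0.216 in clone 2. GUCA2A, the precursor of guanylin, had 0 reads in the control, 58 in clone 1 and 0 in clone 2. Against the floor of 3 reads, clone 1 was 25.8-fold higher, a value that leaves out the counting error of the 58 reads. Villin (VIL1), which bundles actin in microvilli, was at 3.61, 13.2 and 0.221 FPKM, and the brush border peptidase DPP4 at 1.15, 6.34 and 0.581 FPKM. The rise of liver-intestine cadherin (CDH17) was smaller, from 34.9 FPKM in the control to 78.7 in clone 1, with 29.5 in clone 2. TSPAN8, a tetraspanin of gut cells, was at 25.1, 55.3 and 24.1 FPKM.

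The transcription factors of the list moved less than the genes named above. HNF4A was at 4.60 FPKM in the control and 7.91 in clone 1, and CDX2, which sets intestinal identity, at 33.3 and 43.2. KLF4 was at 6.94 and 13.5 FPKM, short of 2-fold on the log2 ratio (0.87). The receptor of vitamin D, VDR, was at 9.14 and 9.95 FPKM. Some members of the list were at or near 0 in both libraries. SI, CA4, TMIGD1 and MS4A12 were listed at 0 in both libraries. ANPEP had 0.0216 FPKM in the control and 0.0173 in clone 1, and ALPI 0.00801 and 0.352. The genes that were higher were thus part of the list and not the whole of it. HNF4A, CDX2, KLF4, VDR, SI, CA4, TMIGD1, MS4A12, ANPEP and ALPI were chosen after seeing their values.

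**Figure D3:**
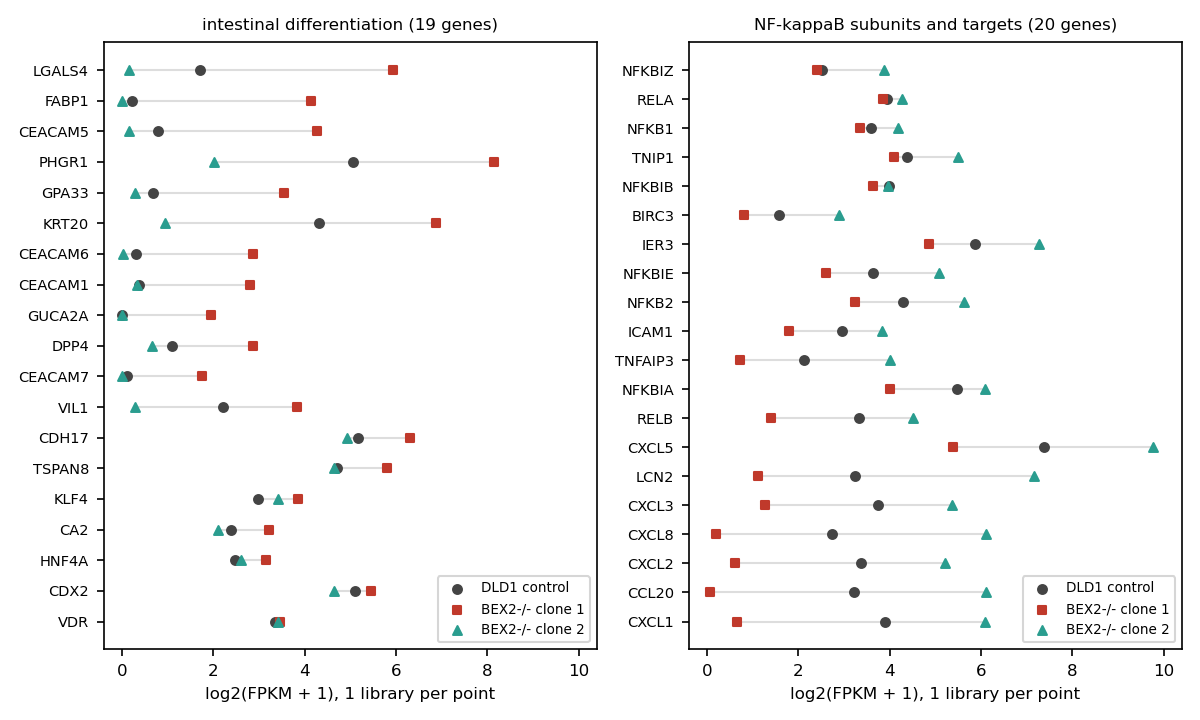
Log2(FPKM + 1) of the 19 intestinal differentiation genes (left) and the 20 NF-kappaB subunits and targets (right) that passed the filter, in the control (grey circles), clone 1 (red squares) and clone 2 (green triangles), 1 library per point. Clone 1 is to the right of the control for all 19 genes of the left panel and to the left of it for all 20 genes of the right panel.

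Secretory genes were measured with 27 genes, of which 9 passed the filter, 5 were at least 2-fold higher and none lower, with a median log2 ratio of 1.05. Over all genes tested, 0.897% were at least 2-fold higher. The median of the list was 0.04 without the filter and 0.68 with TPM. Here too, a gene near 0 in the control could pass the filter only through clone 1. The 5 were REG4, the 3 trefoil factors, small peptides that are secreted with mucus and protect it, and the membrane mucin MUC13. TFF1 was at 70.9 FPKM in the control, 182 in clone 1 and 7.04 in clone 2. TFF3, the goblet cell trefoil factor, was at 12.95, 35.7 and 6.21 FPKM, while TFF2 had 14, 89 and 6 reads. MUC13 was at 13.8 FPKM in the control and 29.7 in clone 1. The gel-forming mucin MUC2 stayed low at 0.0449 and 0.401 FPKM, MUC5AC was level at 9.01 and 8.90, and the secretory regulators ATOH1 and SPDEF did not reach 0.2 FPKM in either library. MUC2, MUC5AC, ATOH1 and SPDEF were chosen after seeing their values.

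Lipid metabolism held further genes that were higher, beside the 0.897% at least 2-fold higher and the 58.1% above 0 over all genes tested. Of 13 genes of lipid oxidation and targets of the PPAR receptors, 10 passed the filter and all 10 had a log2 ratio above 0, with a median of 0.43, and 1 of them was at least 2-fold higher. PPARG itself was at 9.70 FPKM in the control, 18.1 in clone 1 and 4.37 in clone 2, and CPT1A, which admits fatty acids to mitochondria, at 16.2, 27.3 and 8.62. Of 20 genes of cholesterol and fatty acid synthesis, 19 passed the filter, 2 were at least 2-fold higher and all 19 lay above 0, with a median of 0.38. The 2 were HMGCS1, the cytosolic synthase of the mevalonate pathway, and INSIG1, the sterol-regulated retention protein of its control. HMGCS1 was at 15.8 FPKM in the control, 34.6 in clone 1 and 25.9 in clone 2, and INSIG1 at 10.5, 22.6 and 15.2. PPARG and CPT1A were chosen after seeing their values.

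Of the 90 higher genes, 65 were in none of the 30 lists. RBP4, PSCA, CD177 and SLC51B were among the 15 highest. RBP4, the carrier of retinol, was at 1.19 FPKM in the control, 11.4 in clone 1 and 0.882 in clone 2. SLC51B, a subunit of the bile acid exporter of the ileum, had 10, 164 and 21 reads, and clone 1 was 21.9-fold higher (11.6 to 46.5). PSCA, a lipid-anchored surface antigen of epithelia, was at 0.645, 7.55 and 0.214 FPKM, and CD177, a lipid-anchored surface protein best known from neutrophils, at 0.480, 6.58 and 0.520. PSCA, CD177 and SLC51B share exon sequence with a gene on the opposite strand. Reads of the partners cannot be told apart if the counting ignored strand, which is not given in the sources used here.

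Other higher genes act at the cell surface or in transport, and these and the genes of the following paragraph were chosen after seeing their values. ABCG2, an efflux pump of the apical membrane, was at 0.835 FPKM in the control, 7.22 in clone 1 and 0.912 in clone 2. Hephaestin (HEPH), the ferroxidase of iron export from enterocytes, was at 1.10, 7.74 and 0.822 FPKM. FXYD3, a regulator of the sodium pump, was at 8.03, 35.8 and 6.96 FPKM, and the tetraspanin TSPAN1 at 25.2, 103 and 17.4. The sodium/proton exchanger SLC9A2 was at 2.87, 8.22 and 2.42 FPKM and the fatty acid receptor FFAR4 at 0.794, 3.76 and 0.356. For each of these genes clone 1 was the highest library and clone 2 stood close to or below the control. SLC44A4, a choline transporter of the gut, differed from them, with 4.77 FPKM in the control, 15.9 in clone 1 and 12.3 in clone 2. Higher genes named elsewhere that were also above the control in clone 2 included HMGCS1, INSIG1, EPAS1, DSC2, IL33, MVP and SLC51B. ACSL1 was another, at 3.92 FPKM in the control and 5.26 in clone 2. IDH1 and CD177 were slightly above the control in clone 2.

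Genes of the actin cytoskeleton and of energy metabolism were also present. The villin relatives VILL and SCIN were at 1.78 and 0.607 FPKM in the control and at 6.43 and 2.27 in clone 1. CDHR5, a protocadherin that links microvilli, had 42 reads in the control, 248 in clone 1 and 5 in clone 2. Creatine kinase B (CKB) was at 2.06, 5.80 and 1.19 FPKM, and the cytosolic isocitrate dehydrogenase IDH1 at 34.4, 71.9 and 35.1. HPGD, which inactivates prostaglandins, was at 4.43 FPKM in the control and 12.1 in clone 1, and ACSL1, which activates fatty acids, at 3.92 and 10.3. TXNIP and ARRDC4, related arrestin proteins that restrain glucose uptake, were at 17.5 and 3.19 FPKM in the control and at 46.4 and 7.46 in clone 1. The cytokine IL33 was at 2.71 FPKM in the control, 9.02 in clone 1 and 3.79 in clone 2.

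On the other side, the NF-kappaB list held 34 genes, of which 20 passed the filter. At least 2-fold lower were 14 of the 20, none was higher, and all 20 had a log2 ratio below 0, with a median of -1.27. Over all 10037 genes tested, 0.508% were at least 2-fold lower, 4205 lay below 0 and the median was 0.05. A gene that was near 0 in clone 1 could pass the filter only through the control, so the count over the members that passed is a description. Without the filter the median of the list was -0.57. The 14 lower genes were CXCL1, CCL20, CXCL2, CXCL8, CXCL3, LCN2, CXCL5, RELB, NFKBIA, TNFAIP3, ICAM1, NFKB2, NFKBIE and IER3. The summed level of all listed genes was 442 FPKM in the control, 162 in clone 1 and 1833 in clone 2. A list of NF-kappaB targets had been run on these libraries before, so its direction was known when the present list was written.

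The CXC chemokines that draw neutrophils through their receptor CXCR2 were the lowest group. CXCL1 (ENSG00000163739, chromosome 4, 73869393 to 73871242, plus strand) was at 13.8 FPKM in the control, 0.585 in clone 1 and 67.3 in clone 2. This was 23.6-fold lower in clone 1 than in the control (16.1 to 36.0), from 848 and 27 reads. CXCL8, which encodes interleukin 8, had 607 reads in the control, 12 in clone 1 and 7324 in clone 2, and was 37.9-fold lower in clone 1 (21.6 to 73.8). CXCL2 was at 9.40 FPKM in the control, 0.524 in clone 1 and 35.9 in clone 2, and CXCL3 at 12.3, 1.41 and 40.1. CXCL5 was the most abundant of them, with 165, 40.7 and 869 FPKM, and was 4.05-fold lower in clone 1 (3.91 to 4.20). For all 5 chemokines clone 1 was the lowest of the 3 libraries and clone 2 the highest. CXCL1, CXCL2 and CXCL3 are close copies of each other, so the split of reads among them is uncertain.

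CCL20, the ligand of CCR6 that attracts lymphocytes and dendritic cells, was at 8.27 FPKM in the control, 0.0418 in clone 1 and 68.0 in clone 2. Its reads were not resolved, and its log2 ratio was -3.15. Lipocalin 2 (LCN2), which binds bacterial siderophores, was at 8.45, 1.16 and 142 FPKM. It was 7.28-fold lower in clone 1 than in the control (5.65 to 9.53). ICAM1, the adhesion molecule for leukocytes, was at 6.70, 2.47 and 13.3 FPKM.

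Subunits and inhibitors of NF-kappaB were also among the 14. RELB, the partner of p52 in the non-canonical branch, was at 9.03 FPKM in the control, 1.63 in clone 1 and 21.8 in clone 2. It was 5.54-fold lower in clone 1 (4.73 to 6.53). NFKB2, the precursor of p52, was at 18.5, 8.39 and 48.4 FPKM. The inhibitor IkappaB-alpha (NFKBIA) was at 43.4, 15.1 and 66.7 FPKM and IkappaB-epsilon (NFKBIE) at 11.4, 5.05 and 32.9. TNFAIP3, which encodes the deubiquitinating feedback protein A20, had 802 reads in the control, 118 in clone 1 and 3616 in clone 2. The canonical subunits did not reach 2-fold. RELA was at 14.4 FPKM in the control and 13.4 in clone 1, and NFKB1 at 10.99 and 9.13. RELA and NFKB1 were chosen after seeing their values. Genes of the list that did not pass the filter included IL6 and IL1B, both listed at 0 in the control and in clone 1.

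Promoter sequence was looked at because 5 of the chemokine genes lie in a single cluster and are known NF-kappaB targets. RefSeq promoters of 300 bases (GRCh38.p14, 250 bases before to 50 after the start) matched 8083 of the 10037 genes. The letters GGANTTTCC, searched on both strands, were present in 133 of the 8083 windows (1.65%). They were present in 10 of 38 windows of lower genes (26.3%), in 1 of 67 of higher genes (1.49%), and in 8 of 11 of the lower genes of the NF-kappaB list (72.7%). These 8 list members are also among the 10 lower genes. The list was written as NF-kappaB subunits and targets, so a match in its members is no result of these libraries. The windows of CXCL1, CXCL2 and CXCL3 are near copies and are not separate observations. The motifs were chosen after the values were seen, and a match is a description of the sequence and not of binding. Windows of 7 of the 8 genes, all described above, are shown 5′ to 3′ on the strand of the gene, with the match in capitals. The window of NFKBIA, which holds 2 matches, is not shown. The positions are chr4:73869285-73869353 (plus) for CXCL1, chr4:74099234-74099302 (minus) for CXCL2, chr4:74038729-74038797 (minus) for CXCL3, chr4:73998729-73998797 (minus) for CXCL5, chr4:73740448-73740516 (plus) for CXCL8, chr19:10270904-10270972 (plus) for ICAM1 and chr6:137867162-137867230 (plus) for TNFAIP3.
CXCL1: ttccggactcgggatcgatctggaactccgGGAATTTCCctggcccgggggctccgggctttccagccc
CXCL2: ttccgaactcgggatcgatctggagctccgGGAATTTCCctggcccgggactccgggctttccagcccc
CXCL3: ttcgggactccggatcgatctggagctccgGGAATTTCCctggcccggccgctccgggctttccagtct
CXCL5: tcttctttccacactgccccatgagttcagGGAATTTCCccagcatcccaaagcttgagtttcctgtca
CXCL8: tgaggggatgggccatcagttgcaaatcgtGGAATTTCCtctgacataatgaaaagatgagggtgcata
ICAM1: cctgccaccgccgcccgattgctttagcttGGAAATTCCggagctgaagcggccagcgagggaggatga
TNFAIP3: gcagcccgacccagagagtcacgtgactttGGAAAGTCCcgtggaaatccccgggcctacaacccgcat

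The match began 78 bases before the start in CXCL1 and CXCL3, 77 in CXCL2, 90 in CXCL5 and 91 in CXCL8. In ICAM1 and TNFAIP3 the letters are on the opposite strand, 186 and 67 bases before the start. Motifs of intestinal factors were searched in the same way. TTTATNG, a CDX motif, was in 5 of 67 windows of higher genes (7.46%), in 7 of 38 of lower genes (18.4%) and in 5.64% of all windows. CAAAGTNCA, an HNF4 motif, was in 1 of 67 windows of higher genes, that of MUC13, and in 0.643% of all. GTTAATNAT, an HNF1 motif, was in 0 of 67 and in 0.309% of all. These letters were thus not found to be common in the windows of the higher genes, which says nothing of the factors themselves.

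Of the 51 lower genes, 28 were in none of the lists. OLR1, the receptor of oxidised low-density lipoprotein, was at 41.8 FPKM in the control, 7.47 in clone 1 and 214 in clone 2, which made clone 1 5.60-fold lower than the control (5.20 to 6.03). C6orf15, whose function is little known, was at 7.41, 0.616 and 6.34 FPKM. The hair keratin-associated gene KRTAP3-1 had 149 reads in the control, 2 in clone 1 and 2267 in clone 2, and the ratio of control to clone 1 was 55.9 with an interval of 15.2 to 466. S100A5, a calcium-binding protein, had 121, 2 and 167 reads, with a ratio of 45.4 (12.3 to 379). The wide intervals of both come from the 2 reads in clone 1.

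SH3BGRL, a small adaptor protein, was at 9.27 FPKM in the control, 1.76 in clone 1 and 18.7 in clone 2, and cystatin F (CST7), a protease inhibitor best known from immune cells, at 61.2, 16.8 and 55.6. Syndecan-4 (SDC4), a cell surface proteoglycan, was at 50.1, 14.99 and 255 FPKM, and the transcription factor FOXQ1 at 41.6, 14.97 and 85.3. The interferon-inducible membrane proteins IFITM2 and IFITM3 were abundant in the control, at 191 and 174 FPKM, and stood at 88.6 and 74.8 in clone 1 and at 119 and 119 in clone 2. They are close copies, and their levels share the same uncertainty as those of CXCL1 to CXCL3. The cytokines IL17C and CCL26 had 137 and 116 reads in the control and 22 and 20 in clone 1. SDC4, FOXQ1, the IFITM genes, IL17C and CCL26 were chosen after seeing their values.

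Lower genes were also found in other signaling lists, beside the 0.508% lower over all genes tested. Of 17 genes of the BMP and TGF-beta pathways, 11 passed the filter, 2 were lower and none higher, with a median log2 ratio of -0.14. The ligand BMP4 was at 216 FPKM in the control, 96.1 in clone 1 and 211 in clone 2, and the ligand TGFB1 at 10.9, 3.46 and 13.5. The ID genes, direct targets of BMP signals, did not reach 2-fold, and ID1 was at 112 and 132 FPKM. TGFBI, a matrix protein that TGF-beta induces, was at 9.05 FPKM in the control, 1.89 in clone 1 and 20.2 in clone 2, the 1 lower gene of 3 mesenchymal genes that passed the filter of 16 listed, with a median of -0.48 (0.006395 without the filter). DUSP6, the phosphatase that restrains ERK, was at 11.5, 3.73 and 24.5 FPKM and was the only lower gene among 18 of 19 EGF receptor and ERK genes that passed, with a median of -0.09. ID1 was chosen after seeing its values.

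Of 15 targets and partners of YAP and TEAD, 12 passed the filter with a median of -0.54, the lowest after the NF-kappaB list. Over all genes tested, 0.508% were at least 2-fold lower. CYR61, a secreted matrix protein, was lower in clone 1, at 8.75 FPKM in the control, 3.11 in clone 1 and 17.5 in clone 2. CTGF, its relative, was at 1.95, 0.480 and 1.23 FPKM and lay just short of the threshold at -0.997. Retinoid genes had 6 members past the filter of 15 listed. Their median of -0.25 changed sign to 0.25 with TPM scaling and was 0 without the filter. At least 2-fold lower were 2 of the 6. These were CRABP2, which carries retinoic acid to the nucleus, at 6.30 FPKM in the control, 1.40 in clone 1 and 3.98 in clone 2, and RARRES2, the precursor of chemerin, at 10.2, 3.95 and 4.40. Of 7 metallothioneins 4 passed, with a median of -0.25 (-0.06 without the filter), and MT2A was lower at 79.6, 34.0 and 159 FPKM.

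**Figure D4:**
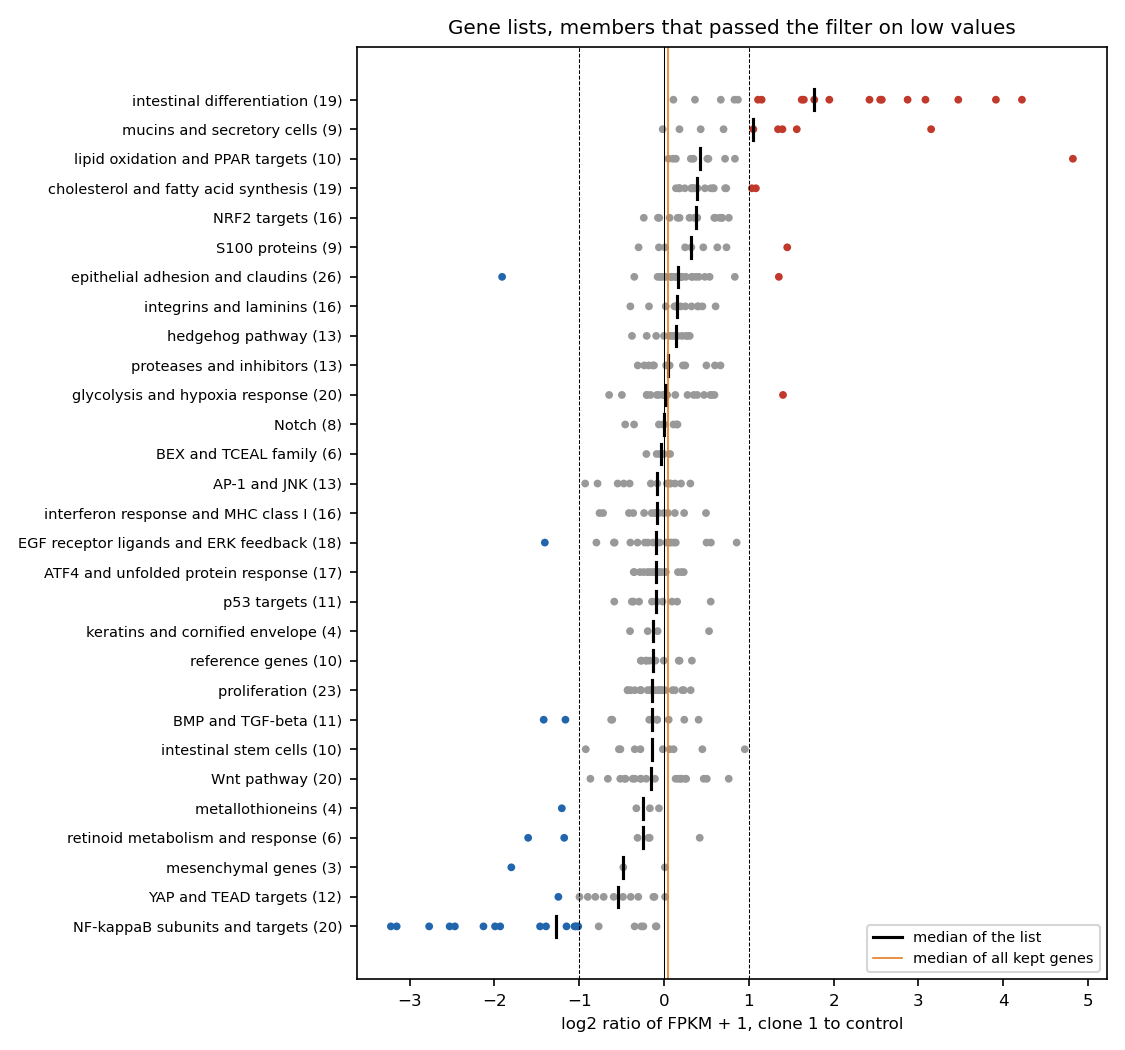
Log2 ratio of clone 1 to the control for each list member that passed the filter (numbers in parentheses), 1 point per gene, red at least 2-fold higher and blue at least 2-fold lower, with black bars at the list medians and an orange line at 0.05, the median of all genes. The intestinal differentiation list (median 1.77) and the NF-kappaB list (median -1.27) hold 14 of the 90 higher and 14 of the 51 lower genes, and 1 list with no member past the filter is not drawn.

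The epithelial adhesion list had 26 of 28 genes past the filter, 1 higher and 1 lower, and a median of 0.16. Over all genes tested, 0.897% were higher and 0.508% lower. Claudin 2 (CLDN2), which forms cation pores in tight junctions, was lower, with 872 reads in the control, 85 in clone 1 and 149 in clone 2, a 7.69-fold difference in clone 1 (6.15 to 9.73). It shares exon sequence with RIPPLY1 on the opposite strand. Desmocollin 2 (DSC2), a desmosomal cadherin, was higher at 2.08, 6.87 and 3.36 FPKM. Of 13 S100 proteins 9 passed with a median of 0.32, and S100P was higher at 43.8, 122 and 13.2 FPKM. Of 25 genes of glycolysis and the hypoxia response 20 passed with a median of 0.02, and EPAS1, which encodes HIF-2 alpha, was higher at 1.90, 6.68 and 4.28 FPKM.

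In the other lists no member that passed the filter reached 2-fold on the log2 ratio in either direction. As plain FPKM ratios, LGR5 and SERPINB5, named below, were past 2-fold. For hedgehog genes, the pathway the study followed, 13 of 33 passed the filter with a median of 0.14, and the largest change was that of ARRB1, at 7.27 FPKM in the control and 5.37 in clone 1. The receptor PTCH1 was at 0.942 FPKM in the control, 1.05 in clone 1 and 2.31 in clone 2, just under the filter. The effector GLI1 had 9, 13 and 10 reads, and GLI2 was at 0.233, 0.569 and 0.133 FPKM. The transducer SMO had 0 reads in the control, 5 in clone 1 and 10 in clone 2, so that clone 1 was at least 2.22-fold above the floor. ZIC2 was at 11.5, 9.86 and 10.5 FPKM. The levels of SMO and GLI1 in clone 1 are both under 0.1 FPKM.

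Wnt pathway genes passed in 20 of 27 cases with a median of -0.16, and LEF1 changed most, from 12.8 to 6.54 FPKM. Intestinal stem cell genes passed in 10 of 17 with a median of -0.15, and the receptor LGR5 was at 7.51 FPKM in the control, 15.5 in clone 1 and 6.25 in clone 2. Proliferation genes passed in all 23 cases with a median of -0.14, and its members lay between -0.43 and 0.31. Among them MCM2 was at 47.5 FPKM in the control and 35.0 in clone 1. AP-1 and JNK genes passed in 13 of 15 with a median of -0.08, and FOSL1 was at 28.0 and 14.2 FPKM. NRF2 targets passed in 16 of 21 with a median of 0.37, and ME1 was at 23.0 and 39.7 FPKM.

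Interferon response and MHC class I genes passed in 16 of 27 with a median of -0.09, and IFI6 was at 14.01 FPKM in the control and 7.86 in clone 1. Integrins and laminins passed in 16 of 18 with a median of 0.15, and ITGA6 was at 20.9 and 32.3 FPKM. Proteases and inhibitors passed in 13 of 23 with a median of 0.05, and SERPINB5 was at 0.722 and 1.73 FPKM. Keratins and cornified envelope genes passed in 4 of 24 with a median of -0.13, and KRT19 was at 305 and 442 FPKM. Genes of ATF4 and the unfolded protein response passed in 17 of 18 with a median of -0.09, and ASNS was at 24.99 and 19.3 FPKM. Notch genes passed in 8 of 12 with a median of -0.003155, and HES4 was at 25.3 and 18.1 FPKM. Targets of p53 passed in 11 of 13 with a median of -0.09, and GDF15 was at 28.6 and 18.7 FPKM. The BEX and TCEAL family passed in 6 of 14 with a median of -0.04, and its member BEX3 was at 104 FPKM in the control and 90.3 in clone 1. Reference genes passed in all 10 cases with a median of -0.13, and ACTB was at 765 and 632 FPKM and GAPDH at 1202 and 1069.

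Several moved genes were neighbours on a chromosome. The coordinates are those of GENCODE 29 on GRCh38, and neighbours were kept genes that moved in the same direction within 250000 bases of each other. On chromosome 4, between 73740506 and 74099293, CXCL8, CXCL1, CXCL5, CXCL3 and CXCL2 were lower and made up 5 of the 6 kept genes of the stretch. The sixth was PF4. On chromosome 19, between 41673307 and 41772208, CEACAM7, CEACAM5 and CEACAM6 were higher and were the 3 kept genes there. On chromosome 21, between 42311667 and 42366594, the same held for TFF3, TFF2 and TFF1. On chromosome 15, between 40331452 and 40378639, CCDC9B, PHGR1 and DISP2 were higher. DISP2, a relative of the hedgehog-releasing protein DISP1, had 82 reads in the control, 1170 in clone 1 and 73 in clone 2. These are the clusters of at least 3 moved genes, and they hold related genes, except that of CCDC9B, PHGR1 and DISP2. Other neighbours came in pairs, some related, such as IFITM2 and IFITM3, and some not, such as FFAR4 and RBP4. LY6G6C and SLC44A4 were 2 of 11 kept genes in their stretch. How often kept genes in general have a moved neighbour was not tested.

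The threshold of 2-fold fell within a continuous range of ratios. Just inside it on the higher side were PRR15 and MVP, with log2 ratios of 1.013 and 1.003, and just outside GAL3ST2, ABCC3 and CFTR, with 0.99, 0.98 and 0.98. On the lower side HES7, IER3 and APOL1 lay just inside at -1.02, -1.01 and -1.01, and CSF1, PTK7 and CTGF just outside at -0.98, -0.99 and -0.997. The major vault protein MVP, for instance, was at 9.30 FPKM in the control, 19.6 in clone 1 and 28.1 in clone 2, and the chloride channel CFTR at 4.76, 10.3 and 1.96. The order differs for plain FPKM ratios, by which CTGF, just outside, was 4.07-fold lower in clone 1 and APOL1, just inside, 2.98-fold lower.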

How the data were processed

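The authors deposited 1 table of FPKM values per gene for the 3 libraries. Their processing notes name Trim Galore 0.3.7, STAR 2.5, Cufflinks 2.2.1, DESeq 1.22.1 and build hg19, and the annotation and strand setting are not given in the sources used here. The table holds no coordinates. Of its 60504 identifiers, 56996 were found in GENCODE 29 (GRCh38), which gave symbols, gene types and exon lengths. Reads were recovered by multiplying FPKM by merged exon length and by the depth that made low values whole within 0.02. Between 98.7% and 98.9% of low values came out whole for genes with 1 transcript, and 88.9% to 89.8% for others. Exact binomial intervals followed from these reads. The method was tested on simulated data. The members and gene lists were chosen with earlier results of these data known. The genes named were the 15 highest and 15 lowest, up to 4 moved genes or else the most changed gene of each list, 3 genes on each side of each threshold, BEX2, SMO, PTCH1, GLI1, GLI2, ZIC2, ACTB and GAPDH. Some genes that this rule names are left out of the text. Any other gene was chosen after its values were seen. Of the 141 moved genes, 43 share exon sequence with another annotated gene. The scripts ran on Python 3.11.15 with scipy 1.17.1, pandas 2.3.3 and numpy 2.4.6, and figures were drawn with matplotlib 3.10.9.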

Additional observations from a re-analysis of the deposited data

Results flagged for a closer look

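Of the 30 genes with the largest changes, 14 moved at least 2-fold in the opposite direction in clone 2. Each clone is 1 library and both ratios share the control library, so the difference was not tested. Higher in clone 1, LGALS4 had a log2 ratio of -1.55 in clone 2, REG4 of -2.46, PHGR1 of -3.04 and KRT20 of -3.37. Lower in clone 1, the chemokine genes had log2 ratios in clone 2 of 2.21 (CXCL1), 2.90 (CCL20), 1.83 (CXCL2), 3.37 (CXCL8), 1.63 (CXCL3) and 2.39 (CXCL5). The others were OLR1 with 2.33, KRTAP3-1 with 3.64, LCN2 with 3.92 and RELB with 1.19.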

How the results depend on the processing

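The 30 largest changes kept their direction and stayed past 2-fold with a pseudocount of 0.1 FPKM, with scaling by the median ratio and with TPM. The numbers of higher and lower genes changed more. Against 90 and 51, they were 154 and 80 with a pseudocount of 0.1 FPKM, 226 and 103 with TPM, 48 and 25 with a mean of at least 5 FPKM, 314 and 157 at 1.5-fold, 157 and 98 over all gene types, and 171 and 88 without a pseudocount and with a floor of 3 reads. The filter of 5 FPKM tests fewer genes and 1.5-fold is a wider call. TPM raises every value, so that more genes pass the filter (11616) and the added 1 weighs less, and these were not separated. The other causes were not tested. Median scaling (80 and 56), no filter (96 and 57) and exons of at least 200 nt (90 and 51) stayed within 1.5 times. The median of the intestinal differentiation list ran from 0.55 to 2.62 and that of the NF-kappaB list from -1.46 to -0.57. Of the list medians, 2 that were clearly below 0 changed sign: mesenchymal genes from -0.48 to 0.006395 without a filter, and retinoid genes from -0.25 to 0.25 with TPM. Medians nearer 0 that changed sign were those of proteases to -0.004475 with median scaling, -0.02434 without a filter and -0.1308 with a mean of at least 5 FPKM, of glycolysis to -0.0323 with median scaling and -0.00064 with a mean of at least 5 FPKM, and with TPM of keratins to 0.29, EGF receptor and ERK genes to 0.00431, Notch to 0.05879 and the BEX and TCEAL family to 0.02294. With 1 library per group, nothing here measures how much the values would vary between cultures.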
